A study of Acipenser ruthenus with 35 samples.

Results

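The last step of the animal-vegetal axis was examined in small, early vitellogenic oocytes of the sterlet (*Acipenser ruthenus*), from the vegetal section D to the extreme vegetal section E. The members were the 8 libraries of sections D and E from oocytes 5, 6, 7 and 8, out of 35 libraries in the series, and D and E of the same oocyte formed a pair. Single oocytes had been oriented along the axis, cryosectioned into 5 consecutive parts named A (extreme animal) to E, and sequenced part by part after depletion of ribosomal RNA (TOMO-Seq). Oocytes 5, 6, 7 and 8 were 1320, 1380, 1440 and 1500 µm in size and came from the same untreated female, and all 5 sections were represented for oocytes 5, 6 and 8 (C, D and E for oocyte 7). The big, advanced vitellogenic oocytes used for comparison came from another female. Only oocytes with continuous gradients of marker transcripts in RT-qPCR had been taken into sequencing, so the orientation of these oocytes was a condition of entry.

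The vegetal pole of a fish or frog oocyte stores maternal RNAs. In the frog *Xenopus laevis* some of them reach the vegetal cortex early in oogenesis together with the Balbiani body, a cloud of mitochondria, RNA and proteins that forms next to the nucleus, while others follow later by a separate route. RNAs kept at this pole include those of the germ plasm, which marks future germ cells, and determinants of the endoderm. The question of the comparison was which transcripts were already confined to the extreme vegetal section in the early vitellogenic stage.

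The transcripts are contigs of an assembled transcriptome, which the study calls de novo. By their identifiers, 31093 came from de novo and 17934 from genome-guided assembly. The identifiers were not paired with gene names here (0 of 49027 identifiers matched a RefSeq table of the species). The study annotated its transcripts through an ortholog analysis, which was not used here. Genes and pathways could therefore not be named, and markers of oocytes or of other ovarian cells could not be looked up. The exceptions were the 3 marker transcripts of the study, whose contigs are named in its list of RT-qPCR primers. These primers are shown here from 5′ to 3′, because they are the only sequences that connect a contig to a gene. All are written in lower case, whatever their case in that list, and no part is marked. The vegetal marker was *dnd1*, an RNA-binding protein required by germ cells. The animal markers were *exd2*, an exonuclease domain protein, and *slc44a3*, of the choline transporter-like family.
dnd1 forward: ggactcagaaaatggggatctccctgg
dnd1 reverse: aaacctcacagccagaggaaggggg
exd2 forward: gtgttggtggaaagacaggaaga
exd2 reverse: gcaccggcaaccccaaa
slc44a3 forward: aggctgctcttcggctatg
slc44a3 reverse: acacctccttccgatcagtc

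Libraries of section D held between 4474895 and 6817459 counts and those of E between 1653598 and 4470769. The shallowest was E of oocyte 7, which was also the shallowest of the whole series. Between 35798 and 41909 transcripts were detected in the 8 libraries. Levels are given as normalized counts, which are counts divided by the median-of-ratios size factor of the library, and the share of a section is its part of the normalized counts summed over the 5 sections. Scaling gives all sections equal weight, so a level describes the composition of the RNA in a section, and more copies of a transcript cannot be told apart from less of the other RNA.

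The marker *dnd1* rose from D to E in all 4 small oocytes. Its normalized counts in D were 671, 534, 641 and 619 in oocytes 5, 6, 7 and 8, and those in E were 971, 741, 1004 and 870. The lowest value of E lay above the highest of D. The difference E minus D was 0.53 ± 0.06 (log2, SE, edgeR adjusted p = 3.52e-07), a 1.45-fold rise, so that 31.9% ± 1.27 (SD, n = 3) of the 5-section total was in E and 22.5% in D. The share in E was below the 50% used here for a confined transcript. Since marker gradients were a condition of entry, *dnd1* is no independent evidence of its direction.

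The animal markers were low in both sections, which held 0.835% (D) and 0.904% (E) of the *exd2* total and 2.00% and 1.61% of the *slc44a3* total. The *exd2* transcript had between 15.3 and 24.1 normalized counts in D and between 20.3 and 27.6 in E, against 1867 to 2385 in A. The *slc44a3* transcript had between 5.10 and 14.7 in D and between 6.93 and 9.73 in E. Their differences between E and D were 0.16 ± 0.22 and -0.24 ± 0.36 (log2, SE, edgeR adjusted p = 0.864 and 0.888), and the ranges of D and E overlapped.

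Most differences between D and E were rises towards the extreme vegetal end. Among 30340 transcripts tested, 1306 (4.30%) were higher in E than in D and 215 (0.709%) were higher in D, by the quasi-likelihood test of edgeR with an adjusted p below 0.1. The median rise of the 1306 transcripts was 1.90-fold, and 608 of them rose by more than 2-fold, 99 by more than 4-fold and 12 by more than 8-fold. The transcripts higher in D differed less, by a median of 1.25-fold. Of these, 18 differed by more than 2-fold, 5 by more than 4-fold and 4 by more than 8-fold. None of the 18 had both a total of at least 200 and the same direction in all 4 oocytes. The largest fall with both was 1.70-fold. The 12 falls with totals between 20 and 50 had a median of -1.75 (log2). Rises formed 85.9% of the calls with median-of-ratios scaling, 76.9% (1211 and 364) with TMM scaling and 65.4% (1145 and 606) with scaling by library totals. The 215 falls were among the calls under both of the latter scalings. These scalings lowered the median difference over all transcripts from 0.0035 to -0.027 and -0.051 (log2), which favours this overlap. Without oocyte 7 there were 847 rises and 67 falls, without oocyte 5 there were 94 falls, and without oocyte 8 there were 120. With all small libraries thinned to the 1653598 counts of the shallowest, 559 rises and 48 falls were left.

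**Figure D1:**
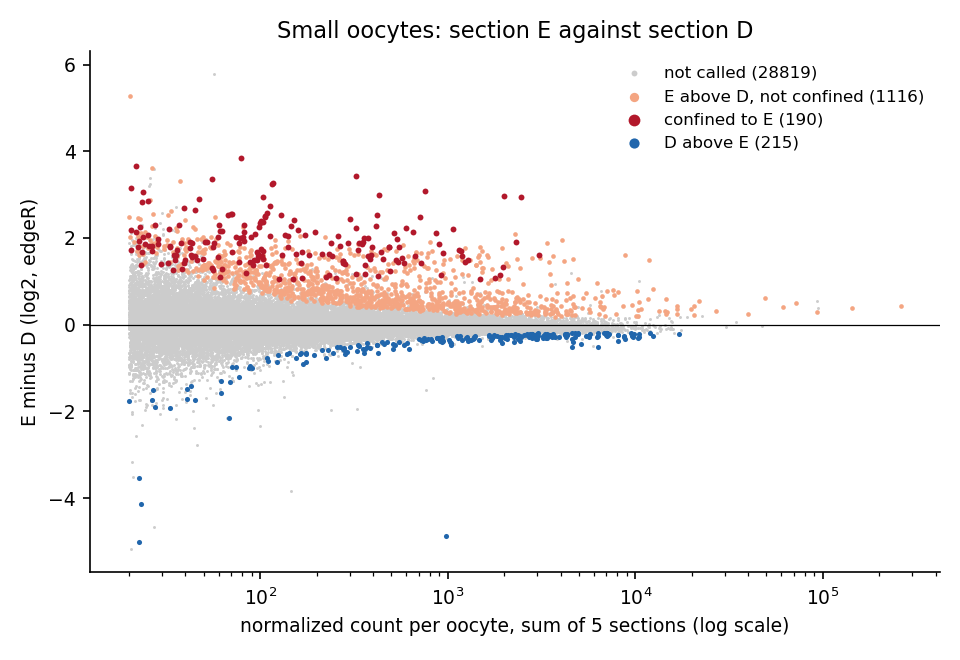
Difference between sections E and D of small oocytes (y axis, log2) against the normalized count per oocyte summed over 5 sections (x axis, log scale), 1 point per transcript tested, coloured by call. Rises over 2-fold (608 of 1306) lie mostly at low and middle levels, and 127 of the 215 falls have totals over 1000, where the differences are small.

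The inner steps of the same oocytes held fewer calls. From B to C, 92 transcripts (0.303%) were higher and 84 (0.277%) lower in the more vegetal section, and from C to D these were 273 (0.900%) and 175 (0.577%). The step from A to B went mostly the other way, with 353 transcripts (1.16%) higher and 1223 (4.03%) lower in B. Rises formed 85.9% of the calls from D to E, 60.9% from C to D and 22.4% from A to B. These shares are with median-of-ratios scaling. With library totals the share from D to E was 65.4%, and those of the other steps were not computed. Neighbouring steps share libraries, and the steps from A to B and from B to C rest on 3 oocytes in place of 4, so the counts are given side by side and were not tested against each other.

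**Figure D2:**
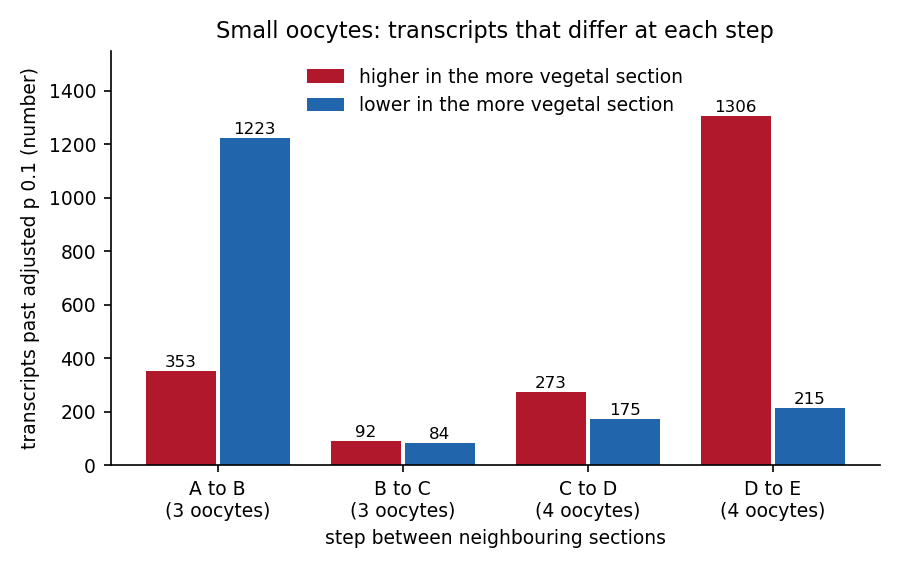
Number of transcripts past an adjusted p of 0.1 (y axis, edgeR) at each step between neighbouring sections of small oocytes (x axis), higher (red) or lower (blue) in the more vegetal section. The outer steps hold most of the calls, with 1223 transcripts lower in B than in A and 1306 higher in E than in D.

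The called rises of transcripts with a low total count were larger. Of the 6289 transcripts with a total between 20 and 50 per oocyte, 2.05% were called higher in E, with a median of 1.82 (log2). Of the 5002 transcripts over 1000, 6.38% were called, with a median of 0.44. Falls were called in 0.191% of the former and 2.54% of the latter class. These medians are over called transcripts, and no detection limit for rare transcripts was computed.

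Among transcripts with a total of at least 200 and the same direction in all 4 oocytes, the 2 with the largest rise had most of their total in E. TRINITY_DN54217_c2_g1_i3_1 had 40.2, 21.7, 48.3 and 24.8 normalized counts in D of oocytes 5, 6, 7 and 8, and 345, 168, 708 and 323 in E. Its values in A, B and C did not exceed 11.9. E was higher than D in each oocyte, and the lowest E was over 3 times the highest D. The difference was 3.43 ± 0.15 (log2, SE, edgeR adjusted p = 2.52e-17), a 10.8-fold rise, and 84.9% of the total lay in E.

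TRINITY_DN54716_c0_g1_i2_1 showed the same form at a higher count. It had 85.6, 66.7, 163 and 67.7 normalized counts in D and 848, 427, 1246 and 675 in E, against 5.52 to 11.4 in A. The ranges of D and E did not overlap, and oocyte 7 had the highest value in both sections and oocyte 6 the lowest. The difference was 3.07 ± 0.12 (log2, SE, edgeR adjusted p = 2.52e-17), and E held 84.7% of the total. By the naming rule these 2 contigs were also the ones with the highest share in E among confined transcripts with a total of at least 200.

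**Figure D3:**
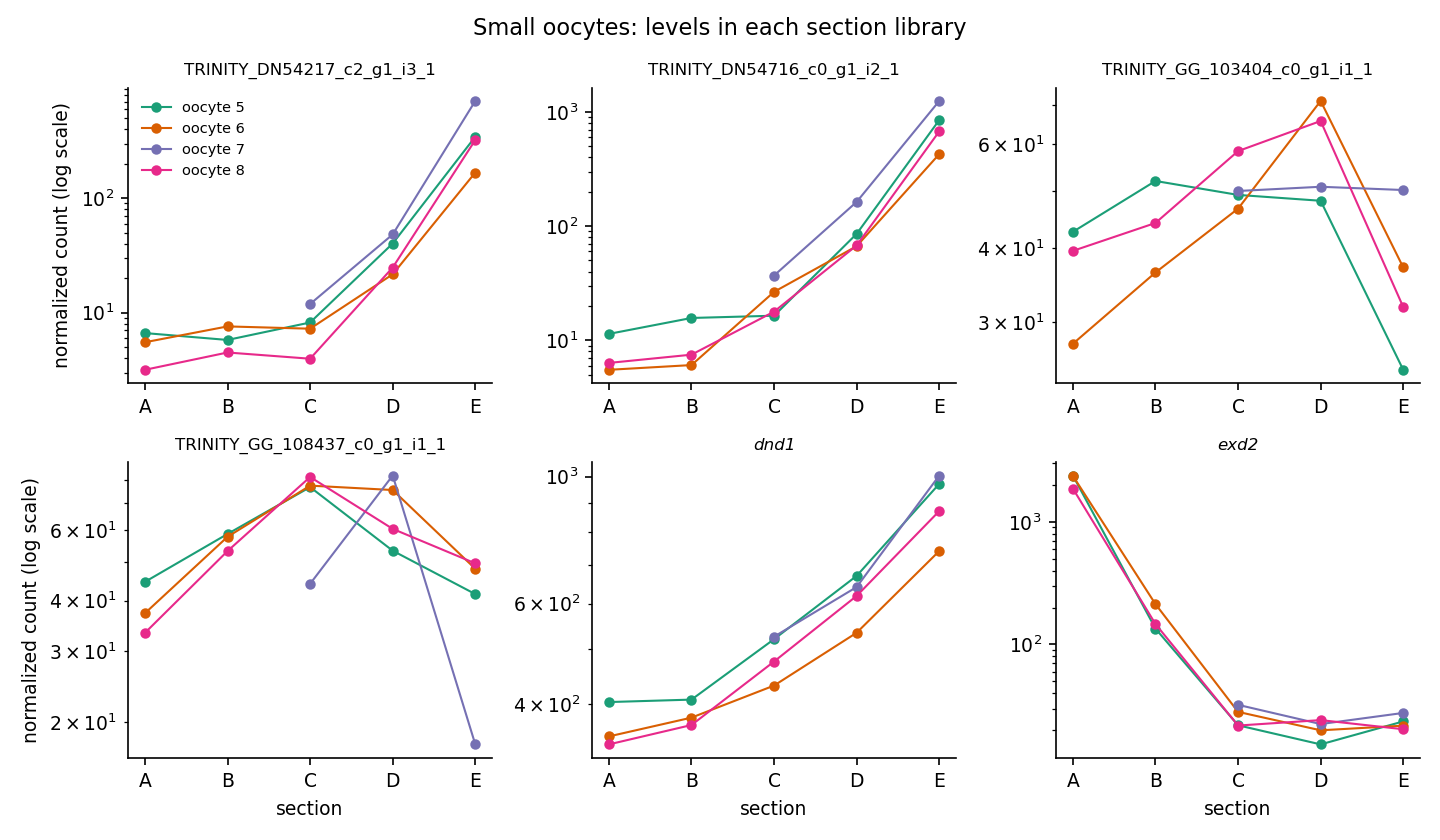
Normalized counts (y axes, log scale, each panel with its own range) in sections A to E (x axes) of small oocytes 5, 6, 7 and 8 (coloured lines, 1 point per library) for the 2 transcripts with the largest rise and the 2 with the largest fall from D to E among those called with a total of at least 200 and the same direction in all 4 oocytes, and for *dnd1* and *exd2*. The rising contigs reach 168 to 1246 in E from at most 163 in D, *dnd1* is nearly level from A to B and climbs from B to E, and *exd2* is highest in A.

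A transcript was called confined to E when it was past the threshold against each of the 4 other sections and had at least 50% of its total in E. This held for 190 transcripts (0.626%). The contrasts alone were passed by 739 transcripts, whose shares in E ran on without a gap around the limit, with 49.9% just outside and 50.1% just inside. With a limit of 33% there were 464 confined transcripts and with 67% there were 40. The median shares of the 190 transcripts in A, B, C, D and E were 5.35%, 5.52%, 9.92%, 18.6% and 59.4%, and the highest share in E was 88.7%. Their median rise from D to E was 3.48-fold. These values describe the list and were part of its choice.

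The confined transcripts were a small part of the RNA. Together they made up 0.339%, 0.249%, 0.413% and 0.266% of the normalized counts in D of oocytes 5, 6, 7 and 8, and 1.12%, 0.642%, 1.77% and 0.874% in E. All 1306 transcripts higher in E accounted for between 9.26% and 11.3% of D and between 12.9% and 17.3% of E. Of the confined transcripts 49 had a total between 20 and 50, 71 between 50 and 200, 56 between 200 and 1000, and 14 over 1000.

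Sections A and C, which are outside the contrast of E with D, divided the 1306 transcripts into 3 forms. Both contrasts come from the same fit and share its estimate of the spread, so their calls are not independent. In C against A, 191 of them (14.6%) were higher in C, against 5.79% of all transcripts tested, 365 (27.9%) were higher in A, against 7.72%, and 750 were not called. The first form climbed along the whole axis, with median shares of 8.99%, 11.2%, 16.6%, 23.3% and 38.4% from A to E. The form higher in A was high at both ends, with 31.7%, 16.4%, 13.1%, 12.7% and 24.6%. Its highest share lay in A for 273 of the 365 transcripts, next to 8882 of all 30340 tested. The shapes of both forms follow in part from the calls that chose them. The remaining 750 transcripts, not called between A and C, had median shares of 15.7%, 15.1%, 16.5%, 19.2% and 31.8% from A to E. The missing call does not show that A and C were alike, and 65 of the 750 had their highest share in A and 29 in C. None of the 190 confined transcripts was called higher in A than in C, which the limit on the share in E favours, and 51 (26.8%) were called higher in C.

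**Figure D4:**
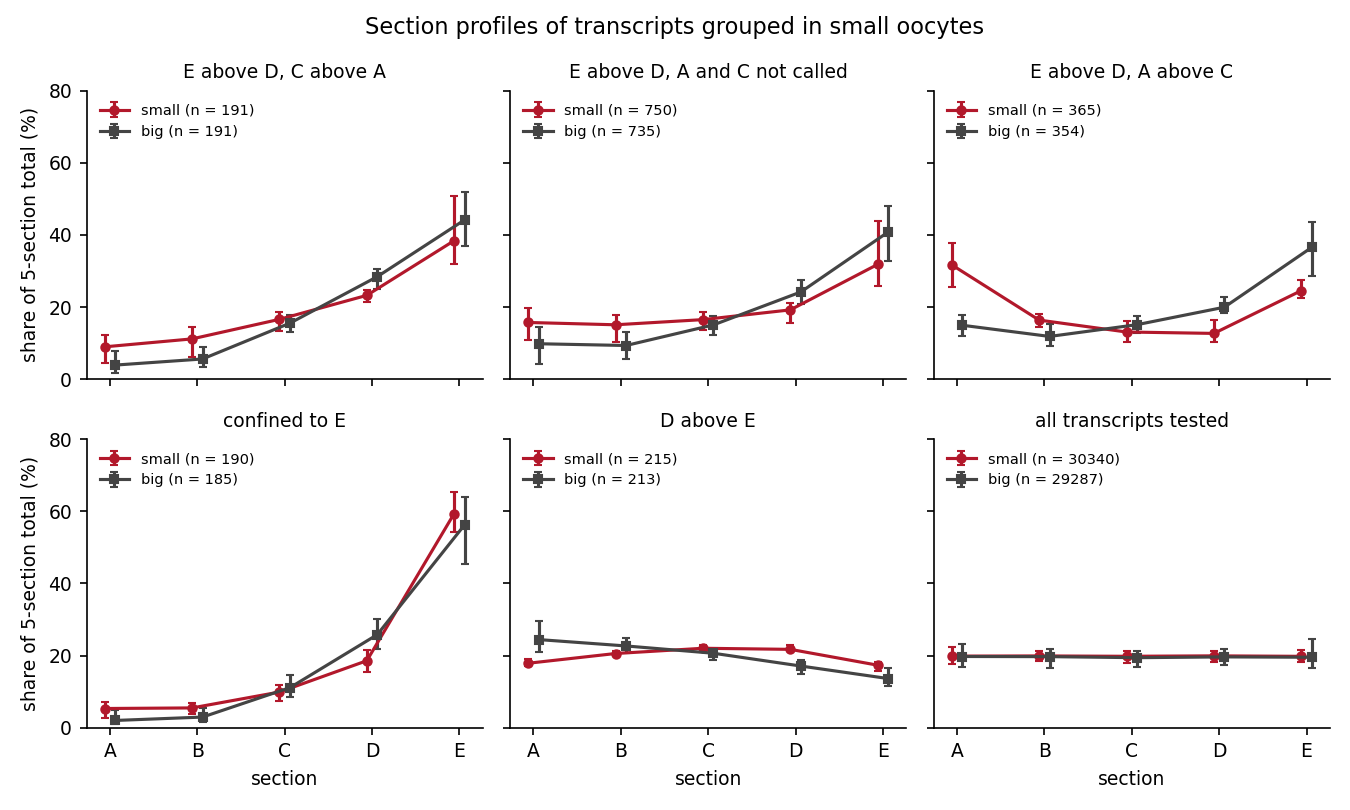
Median share of the 5-section total (y axes, %) in sections A to E (x axes) for transcripts grouped by their calls in small oocytes, in small (red) and big (grey) oocytes. Bars show the quartiles over transcripts. The form high at both ends of small oocytes has a median of 31.7% in A of small and 14.97% in A of big oocytes, and transcripts higher in D than in E of small oocytes fall from 24.5% in A to 13.7% in E of big oocytes. The values of small oocytes chose the groups.

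Transcripts higher in D than in E mostly had their highest share in C or D. Their median shares differed little, at 17.9%, 20.6%, 22.0%, 21.7% and 17.3% from A to E. The highest share lay in C for 114 and in D for 82 of the 215 transcripts, next to 6461 and 4463 of all 30340 tested. The choice of D above E works against a highest share in E. Section C was called above A for 108 of the 215 (50.2%), against 5.79% of all transcripts, and A above C for 7. Of the 215 transcripts, 127 had totals over 1000, as did 5002 of the 30340 tested. The share over all transcripts is therefore not matched for total count. TRINITY_GG_103404_c0_g1_i1_1 had 48.2, 71.1, 50.9 and 65.7 normalized counts in D and 24.9, 37.2, 50.2 and 31.8 in E of oocytes 5, 6, 7 and 8. The sections overlapped, since oocyte 7 hardly differed between D and E. The difference was -0.76 ± 0.20 (log2, SE, edgeR adjusted p = 0.0173). Without oocyte 8 it was -0.65 and no longer called (adjusted p = 0.254).

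TRINITY_GG_108437_c0_g1_i1_1 had 53.3, 75.4, 81.9 and 60.4 normalized counts in D and 41.6, 48.0, 17.6 and 49.5 in E. All values of E lay below all values of D, with the lowest of E in oocyte 7. The difference was -0.69 ± 0.20 (log2, SE, edgeR adjusted p = 0.0495), and the call was lost without oocyte 7 (-0.41, adjusted p = 0.337) or 6 (-0.70, adjusted p = 0.249). In the thinned libraries the differences of both contigs were larger, at -1.04 and -1.10 (log2), but not called (edgeR adjusted p = 0.204 and 0.147). A contig singled out after its values were seen, TRINITY_DN55089_c0_g2_i2_1, had a larger fitted fall of -4.87 ± 1.29 (log2, SE, edgeR adjusted p = 0.0777), and the naming rule left it out because D did not lie above E in every oocyte.

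The size of the rise varied between the 4 oocytes. Over the 190 confined transcripts the median ratio of E to D was 3.34-fold in oocyte 5, 2.57-fold in oocyte 6, 4.54-fold in oocyte 7 and 3.31-fold in oocyte 8. E was above D for 100% of the 190 transcripts in oocytes 5, 7 and 8 and for 97.9% in oocyte 6. Oocyte 7 had the largest ratio for 119 of the 190 transcripts and oocyte 6 the smallest for 111. The median over all transcripts tested was at most 0.011 (log2) in each oocyte. E of oocyte 7 was the shallowest library, with 1653598 counts, and E of oocyte 6 held 4324462. The part of depth in this order was not tested.

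Rises called in 3 oocytes were looked up in the oocyte left out of the fit. Of the transcripts called higher in E without oocyte 5, 6, 7 or 8 (942, 1270, 847 and 919), E was above D in the oocyte left out for 92.4%, 91.2%, 96.9% and 96.0%, against 51.3%, 50.9%, 50.5% and 50.6% of all transcripts tested. Their median ratio in the oocyte left out was 0.77, 0.57, 1.05 and 0.85 (log2), next to 1.05, 0.96, 0.99 and 1.03 in the fits. For confined transcripts (139, 229, 168 and 164) these shares were 100%, 95.6%, 100% and 99.4%. For the falls, D was above E in the oocyte left out for 70.2%, 76.6%, 82.1% and 79.2% of them, against 48.6% to 49.3% of all transcripts, with medians of -0.17, -0.19, -0.18 and -0.17.

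**Figure D5:**
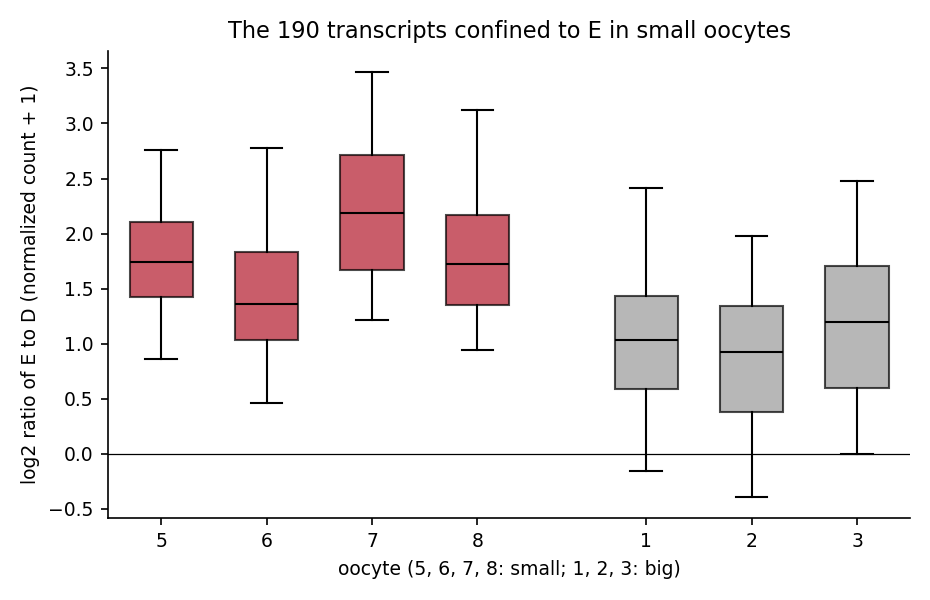
Ratio of E to D (y axis, log2 of normalized counts plus 1) of the 190 transcripts confined to E in small oocytes, in each small (5, 6, 7, 8; red) and big (1, 2, 3; grey) oocyte (x axis). Boxes show quartiles and medians over transcripts, whiskers the 5th and 95th percentiles. Medians lie between 1.36 and 2.18 in small oocytes, whose values chose the list, and between 0.93 and 1.20 in big oocytes.

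Big oocytes, which share no library with small ones, showed many of these rises as well. Of the 1306 transcripts, 1280 were tested in big oocytes, and 838 of them (65.5%) were higher in E than in D there, against 12.7% of all transcripts, while 0 were lower, against 5.57%. The 838 transcripts were 22.2% of the 3776 transcripts higher in E of big oocytes that were tested in both stages. The median difference of the 1280 in big oocytes was 0.69 (log2). Of the confined list, 131 of 185 transcripts tested (70.8%) were higher in E than in D of big oocytes and 0 were lower, with a median share of 56.3% in E and 25.8% in D. By form, 63.9% of those climbing along the axis, 66.4% of those high at both ends and 65.4% of those not called between A and C were called higher in E of big oocytes.

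On the animal side of these profiles, section C was called above A in big oocytes for 646 of the 1280 transcripts (50.5%), against 14.4% of all transcripts, and A above C for 69 (5.39%), against 14.7%. Among the transcripts high at both ends of small oocytes, 354 were tested in big oocytes. There, 57 (16.1%) were higher in C than in A, against 14.4% of all transcripts, and 37 (10.5%) higher in A, against 14.7%. The median share of this form in A was 14.97% in big oocytes, next to 31.7% in small ones, and in E it was 36.5% next to 24.6%. The small-oocyte shares come from the values that chose this list and those of big oocytes do not, so the gap is no measure of a change between stages. Of the transcripts higher in D than in E of small oocytes, 213 were tested in big oocytes. Of these, 103 (48.4%) were higher in D there, against 5.57% of all transcripts, and 7 (3.29%) higher in E, against 12.7%. Section A was above C for 101 of the 213 (47.4%) in big oocytes, against 14.7% of all transcripts. Stage, female and RNA input of the libraries cannot be told apart in any of these comparisons.

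Seen from the big oocytes, 838 of the 3776 rises were already called in the small stage. The 3776 transcripts higher in E of big oocytes had a median difference of 0.73 (log2) in big and 0.21 in small oocytes, where 76.1% lay above 0 and 22.2% were called, against 4.30% of all transcripts. The 2938 that were not called in small oocytes had a median of 0.11 there. Transcripts higher in D of big oocytes (1779 tested in both) had a median of -0.10 in small oocytes.

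The difference itself was tested over all 35 libraries. The step from D to E was larger in big oocytes for 390 of 33209 transcripts (1.17%) and smaller for 90 (0.271%) by edgeR, and with the oocyte as a block for 698 and 213. With scaling by library totals there were 246 and 125, 66.3% in place of 81.3% larger in big. Transcripts with a larger step in big oocytes had a median of 0.71 (log2) in big and -0.07 in small oocytes. Of the 387 of them tested in small oocytes, 3 were called higher in E there and 12 higher in D. The shares over all transcripts were 4.30% and 0.709%. Those with a smaller step had medians of -0.32 in big and 0.55 in small oocytes. Of the 89 of them tested in small oocytes, 46 were called higher in E there and 1 higher in D. Confined to E in small oocytes were 22 of them, against 0.626% of all transcripts. These medians and counts use the values that chose the lists. Without oocyte 1, 3, 5, 6 or 8 the larger group fell to 176, 171, 176, 199 and 196 transcripts. Without oocyte 1, 2, 3, 5, 6, 7 or 8 the smaller group fell to 24, 59, 34, 27, 56, 53 and 40. For *dnd1* the step was 0.92 ± 0.13 in big oocytes, and the difference between stages of 0.35 ± 0.26 (log2, SE, edgeR adjusted p = 0.74) was not called.

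TRINITY_DN43323_c0_g1_i1_1 had a step in small oocytes only by its ranges. In small oocytes 5, 6, 7 and 8 it had 29.5, 18.2, 31.0 and 34.9 normalized counts in D and 121, 78.8, 266 and 109 in E. In big oocytes 1, 2 and 3 it had 74.1, 71.7 and 115 in D and 75.4, 76.8 and 81.4 in E. Sections D and E did not overlap in small oocytes and did in big ones, and the difference between stages was -2.34 ± 0.42 (log2, SE, edgeR adjusted p = 0.00237). It held 64.0% of its total in E of small and 28.1% in E of big oocytes.

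TRINITY_DN49717_c0_g1_i1_1 was chosen by the same rule and turned on a single library. It had 1059 to 1542 normalized counts in D and 1395 to 2008 in E of small oocytes, and 206 to 241 in E of big oocytes, where D was 2155 in oocyte 1 but 240 and 255 in oocytes 2 and 3. The difference of -2.35 ± 0.63 (adjusted p = 0.085, edgeR) became -0.48 (adjusted p = 0.782) without oocyte 1, and its adjusted p was 0.122 with the oocyte block. It was also lost without oocyte 5, 6, 7, 8 or 11 (adjusted p between 0.103 and 0.242, edgeR) and without a filter (0.12). Oocyte 11 had no library of D or E.

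In the opposite direction, TRINITY_DN43781_c0_g1_i1_1 was rare in small oocytes, with 5.17 to 6.93 normalized counts in D and 1.39 to 6.19 in E. In big oocytes 1, 2 and 3 it had 145, 150.1 and 127 in D and 427, 424 and 289 in E. The difference between stages was 2.25 ± 0.53 (log2, SE, edgeR adjusted p = 0.0257), lost without oocyte 5 or 6 (adjusted p = 0.169 and 0.188). TRINITY_DN45607_c0_g1_i1_1 had 6.90 to 27.5 in D and 2.51 to 20.8 in E of small oocytes. Its values were 43.0, 57.0 and 39.4 in D and 136, 168 and 85.6 in E of big oocytes, with a difference of 1.88 ± 0.52 (log2, SE, edgeR adjusted p = 0.0878). Its call was lost without oocyte 1, 2, 3, 5, 6 or 8 (adjusted p between 0.127 and 0.394), with library totals (0.101) and without a filter (0.135). With the oocyte block the adjusted p-values of the 2 contigs were 0.00903 and 0.00624.

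As a measure that needs no calls, the log2 ratios between E and D of 13943 transcripts were taken at a common depth of 1653598 counts, and their SD was computed per oocyte. It was 0.586, 0.535, 0.518 and 0.617 in small oocytes 5, 6, 7 and 8, and 0.640, 0.880 and 0.889 in big oocytes 1, 2 and 3. All big oocytes lay above all small ones, oocyte 1 only just. The means were 0.564 ± 0.0456 (SD, n = 4) and 0.803 ± 0.141 (SD, n = 3), and the two-sided exact permutation p of 0.0571 is the smallest that 4 against 3 oocytes allow. The difference of 0.239 was 0.119 over transcripts above 1000 counts per oocyte and 0.040 (exact p = 0.286) without thinning.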

How the data were processed

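Sections A to E of single oocytes were sequenced by TOMO-Seq. The authors used Trimmomatic for trimming and SortMeRNA against reads of mitochondrial and ribosomal origin, and pseudoaligned the remainder by kallisto 0.43.1 against an assembled transcriptome. Estimated counts were deposited, all of them whole numbers, and 97 of 49027 transcripts are 0 in every library. Tables of normalized counts and of totals per oocyte were not used here.

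Counts of the 18 libraries of small oocytes (1653598 to 6817459 counts) were fitted with edgeR 4.0.16 in R 4.3.3 (quasi-likelihood, robust), with section and, as in the study, oocyte as a block, and median-of-ratios scaling. Transcripts with a normalized total over 20 per oocyte were tested, where the total is the sum over 5 sections averaged over complete oocytes. The Benjamini-Hochberg method was applied over all transcripts tested, with the study's threshold of 0.1. Each SE printed with an edgeR difference is the absolute log2 difference divided by the square root of the F statistic. It is an approximation that is unreliable for very small differences. The 17 libraries of big oocytes were fitted alike. The difference between stages was an interaction term over the 35 libraries and, following the study, had no block. Single-oocyte ratios used a pseudocount of 1.

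D and E libraries of the same number come from the same cell. Over 14334 transcripts their deviations from the section means correlated at 0.261 on average (0.200 to 0.361), against -0.0854 for different oocytes. The centring on section means largely fixes the second value once the first is given, so it is no separate evidence of the pairing. In the edgeR fits within a stage, the block removes level differences between oocytes. Their p-values measure how section differences vary between oocytes of the same female, with the spread pooled over all sections. The test between stages had no block, so its spread also includes level differences between oocytes of the same stage. Spread between females is measured by neither. Kallisto divides reads shared by related contigs by estimate.

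Named transcripts were, per direction, the 2 largest called changes among totals of 200 or more with the same direction in all 4 oocytes (between stages, no overlap of oocytes, and the total of at least 200 in 1 stage), the 2 highest shares in E among confined transcripts of that total, and the 3 markers. Lists prepared by gene symbol could not be used. Comparisons, lists and limits were chosen with earlier results of these data known. Alternatives were TMM and library-total scaling, other filters, no block, DESeq2 1.42.0, thinned libraries, sums per assembled gene, D and E libraries alone, and leaving out each oocyte. The edgeR test of E against D in small oocytes was tried on simulated counts, with known changes placed in transcripts with totals over 200.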

Additional observations from a re-analysis of the deposited data

Results flagged for a closer look

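In 42 groups of 4 oocyte values that were examined, 1 value lay far from the other 3, where chance gives about 1 in 20. It was the ratio of E to D of TRINITY_GG_103404_c0_g1_i1_1 in oocyte 7, at -0.018 (log2).

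The test of the difference between stages was past the threshold for 4 named transcripts, TRINITY_DN43781_c0_g1_i1_1 (2.25, log2), TRINITY_DN45607_c0_g1_i1_1 (1.88), TRINITY_DN49717_c0_g1_i1_1 (-2.35) and TRINITY_DN43323_c0_g1_i1_1 (-2.34). They had been chosen by this test.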

How the results depend on the processing

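Rises from D to E (1306 in small oocytes) numbered 559 with thinned libraries, 845 with totals over 200 (14334 transcripts tested), and 847 to 1270 when an oocyte was left out. Falls (215) numbered 364 with TMM, 606 with library totals, 129 without the oocyte block, 117 with DESeq2, 48 with thinned libraries, 374 with the D and E libraries alone, and 67 to 235 when an oocyte was left out. Confined transcripts (190) numbered 70 with totals over 200, 116 with thinned libraries, 464 and 40 with limits of 33% and 67%, and 139 to 229 when an oocyte was left out. Rises shared by both stages (838) numbered 489 without the oocyte block and 571 to 804 when an oocyte with sections D and E was left out. Without big oocyte 11, which had sections A and B only, they numbered 818. The difference in spread between stages (0.239) was 0.196 to 0.321 when an oocyte was left out.

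Larger steps in big oocytes (390) numbered 246 with library totals, 698 with the oocyte block, and 171 to 401 when an oocyte was left out. Smaller steps (90) numbered 56 without a filter, 136 with totals over 200, 213 with the oocyte block, and 24 to 59 when such an oocyte was left out. Without oocyte 11, which had no D or E, there were 401 larger and 89 smaller steps. The cause of these shifts was not tested.

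All 1211 and 1145 rises called with TMM and library totals were among the 1306. Both scalings lowered the median difference over all transcripts, which favours this overlap. Among the 1306 were also 975 of 1006 rises called with DESeq2 and 907 of 913 without the block. Of the differences E minus D of named transcripts and markers, 78 of 84 alternative values kept direction and side of the threshold, and 5 lost the call. The sign of *slc44a3*, which was not called, turned without oocyte 6 (0.029, log2, with -0.46 to 0.029 over the oocytes left out). Of the differences between stages, 78 of 98 were kept and 18 lost the call, and that of *exd2*, not called, turned without oocyte 1 (0.16) or 5 (0.048), with -0.44 to 0.16 over the oocytes left out.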

Other observations

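The 1306 transcripts higher in E belonged to 1287 assembled genes, as given by their identifiers. Of these genes, 87 had at least 2 contigs tested, and of their 180 contigs 106 were called higher in E, 74 were not called and 0 were higher in D. Since each of the 87 genes was taken for having a called contig, at least 87 of the 106 calls follow from the choice. The 74 contigs without a call had a median of 0.14 (log2), and 51 of them lay above 0. Summing the counts per assembled gene gave 1308 rises and 233 falls. Contigs of the same gene that carry different gene identifiers were counted apart, and their number is not known.

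By their identifiers, 26.6% of the contigs higher in E came from genome-guided assembly, next to 35.2% of all contigs tested and 40.5% of the 190 confined ones. These shares were not tested against each other.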
